A study of Homo sapiens with 12 samples.

Results

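The mitosis and kinetochore genes were followed as a module of 51 genes out of 58735 in the count table, chosen by gene symbol from a list of proteins that drive entry into mitosis, attach chromosomes to the spindle, separate them and divide the cell. All 51 symbols were found once and all 51 passed the filter on low counts, which left 17829 genes to test. The cells were A549, an established human lung adenocarcinoma line, studied as control cells or as cells expressing GFI1, a zinc-finger transcriptional repressor best known from blood cell development. GFI1 was delivered by a lentivirus from the hPGK promoter together with GFP, and GFP-positive cells were sorted. The sources used here do not state whether the control cells of this experiment carried an empty vector. Both kinds of cell were either Attached or Floating, the latter meaning forced into suspension for 48 h, so that there were 4 groups of 3 libraries: attached control, attached GFI1, floating control and floating GFI1. All were grown in the same serum-containing medium, and poly-A RNA was sequenced. Nothing in the labels says that the 3 libraries of a group came from separate cultures, so the p-values below measure the spread between these libraries, which may be technical.

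During the G2 phase the cyclin B and CDK1 kinase is switched on by CDC25 phosphatases, and Polo-like and Aurora kinases build the spindle. Kinetochores, assembled on CENPA-containing centromeres, bind spindle microtubules through the NDC80 complex, while the checkpoint proteins hold back CDC20 and the anaphase-promoting complex until every chromosome is attached. Most of these genes are transcribed late in the cell cycle, from promoters that carry CCAAT boxes and a cell cycle genes homology region (CHR), through the activators MYBL2 and FOXM1 and the repressing DREAM complex, and their summed RNA is widely used as a readout of proliferation.

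The promoters show what these genes have in common in sequence. RefSeq windows (GRCh38.p14) running from 250 bases before to 50 bases after a gene start were at hand for 45 of the 51 members, as 57 windows because some members have several starts. The CHR letters TTTGAA, read on both strands, occurred in 36 of the 57 windows (63.2%), against 15.2% of all 35116 windows of the same length. CCAAT, also read on both strands, occurred in 40 of the 57 (70.2%), against 34.6% of all windows, and both motifs together were held by 28 of the 57 (49.1%), against 5.90%. The less common CHR letters TTCGAA were found in 3 of the 57 windows (5.26%) and in 1.45% of all windows. AATCAC, the core letters of the site GFI1 is known to bind, were found in 5 of the 57 windows (8.77%) and in 10.2% of all windows, so they were not more frequent in the members. A match gives letters in a window and is neither a bound site nor a cause.

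As a CHR, no letters other than TTTGAA and TTCGAA were searched. CDK1 is shown from its second start, which has several TTTGAA matches. The 80 bases before the start are printed below for CDK1, for 5 members with TTTGAA in this stretch and for 3 members without it. They are written 5′ to 3′ on the gene's own strand, with TTTGAA and CCAAT, or their reverse complements, in capitals.
PLK1: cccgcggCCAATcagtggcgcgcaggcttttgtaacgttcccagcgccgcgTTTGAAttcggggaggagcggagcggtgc
CCNB2: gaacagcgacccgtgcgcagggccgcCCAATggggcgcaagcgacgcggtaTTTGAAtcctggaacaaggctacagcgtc
MKI67: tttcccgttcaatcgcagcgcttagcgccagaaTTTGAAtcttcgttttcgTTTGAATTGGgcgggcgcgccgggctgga
CDC20: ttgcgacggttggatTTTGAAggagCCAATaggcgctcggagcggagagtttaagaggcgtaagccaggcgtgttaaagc
HMMR: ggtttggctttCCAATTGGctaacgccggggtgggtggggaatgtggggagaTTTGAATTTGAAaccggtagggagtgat
CDK1: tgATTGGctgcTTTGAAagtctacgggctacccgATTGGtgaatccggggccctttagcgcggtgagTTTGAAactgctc
CCNB1: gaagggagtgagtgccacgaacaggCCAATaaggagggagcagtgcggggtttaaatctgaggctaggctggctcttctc
MYBL2: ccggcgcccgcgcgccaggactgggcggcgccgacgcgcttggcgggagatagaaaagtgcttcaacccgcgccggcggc
SPC24: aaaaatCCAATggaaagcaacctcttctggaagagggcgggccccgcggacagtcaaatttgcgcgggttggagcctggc
The stretches lie at chr16:23678809-23678888 (plus strand), chr15:59105066-59105145 (plus strand), chr10:128126424-128126503 (minus strand), chr1:43358901-43358980 (plus strand), chr5:163460552-163460631 (plus strand), chr10:60778398-60778477 (plus strand), chr5:69167070-69167149 (plus strand), chr20:43667034-43667113 (plus strand) and chr19:11155783-11155862 (minus strand). In PLK1 and CCNB2 the CHR began 29 bases before the start, with CCAAT boxes 73 and 54 bases before it. HMMR held a pair of adjoining CHR matches, at 28 and 22 bases before the start. The MYBL2 window held none of the 4 motifs, and those of CCNB1 and SPC24 held CCAAT without TTTGAA.

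CHR matches of the members lay mostly close to the start. In the last 60 bases before it, a distance chosen after the positions were seen, 22 of the 57 windows had one (38.6%), against 2.98% of all windows, and the fullest 10-base step was that from 30 to 21 bases upstream, with 9 windows.

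**Figure D1:**
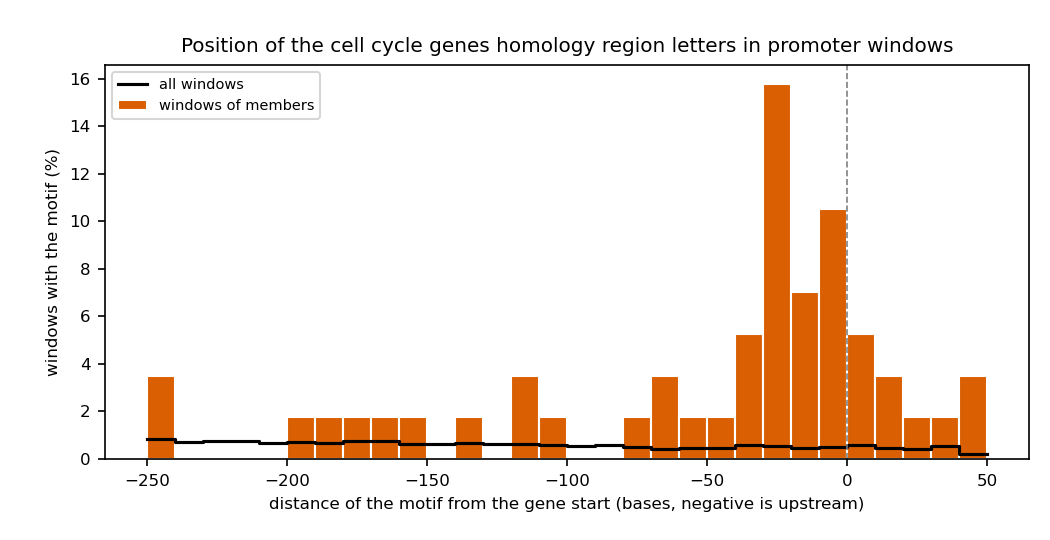
Bars give the percentage of the 57 member windows, and the black line that of all 35116 windows, with TTTGAA on either strand in each 10-base step, against distance from the gene start in bases. The bars stand highest between 40 bases upstream and the start, whereas the line stays below 1% throughout.

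Sequencing depth was even, at 17014188 to 20748677 counts per library, of which 65960 to 135380 fell on the 51 members. The lowest count of any member in any library was 57. The GFI1 gene itself, which checks the labels, had 4 to 12 counts in the 6 control libraries and 5154 to 12796 in the 6 GFI1 libraries, with a mean ± SD of 290.1 ± 4.40 CPM (counts scaled to a common library total) in attached GFI1 and 560.1 ± 138 CPM in floating GFI1. Of 6 epithelial markers, KRT7, KRT8 and KRT18 were abundant and EPCAM was low, at up to 2.25 CPM in a group mean. These 4 and CDH1, 5 of the 6, were lower with GFI1 in both states, whereas MUC1 was higher. Mean CDH1 was 119.8 CPM (attached control), 6.45 (attached GFI1), 85.4 (floating control) and 3.99 (floating GFI1). Mean MUC1, listed likewise, was 7.81, 28.8, 26.3 and 49.1 CPM. The summed level of all 6, nearly all of it keratin RNA, was 10392 to 10994 CPM in attached control and 4248 to 4367 in attached GFI1. It was 6554 to 6960.1 CPM in floating control and 3083 to 3456 in floating GFI1. The lung lineage markers NKX2-1, NAPSA, SFTPB and SFTPC summed to at most 6.34 CPM in any library. The 4 leukocyte markers summed to at most 1.15 CPM, with CD3E at 0 in every library, and DCN was also at 0. Of 3 endothelial and 3 fibroblast markers, CDH5, VWF and PDGFRB were called higher with GFI1 in both states, and PECAM1, DCN and LUM were too low to be tested. The summed levels of these lists were at most 0.602 and 0.296 CPM in control libraries and 3.55 to 5.52 and 1.74 to 3.69 CPM in GFI1 libraries, that of the fibroblast list being nearly all PDGFRB. The part of these marker changes in the results on the members was not tested.

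The module was highest in attached control cells and fell with GFI1, with suspension, and most with both. Levels are given in CPM, here counts divided by library totals that were adjusted by edgeR's TMM factors. The 51 members summed to 7386, 7352 and 7362 CPM in attached control, 5371, 5544 and 5566 in attached GFI1, 5297, 5393 and 5264 in floating control, and 3752, 3637 and 4084 in floating GFI1. The attached control libraries stood above all others and the floating GFI1 libraries below all others, while attached GFI1 and floating control overlapped. As means ± SD of 3 libraries the sums were 7367 ± 17.3, 5494 ± 107, 5318 ± 66.6 and 3824 ± 233 CPM, so that floating GFI1 cells kept 51.9% of the attached control level, attached GFI1 cells 74.6% and floating control cells 72.2%. In bulk RNA, fewer cells in G2 and mitosis and less mitotic RNA per cell cannot be told apart.

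GFI1 lowered most of the module in attached cells. Of all 51, at a Benjamini-Hochberg threshold of 0.05 (edgeR quasi-likelihood test over 17829 genes), 44 members were lower in attached GFI1 than in attached control and 1 was higher. The background was high, since 32.8% of all genes tested were called lower and 29.5% higher, and the members' 44 of 51 lies above it. The median log2 fold change was −0.35 over the members and −0.01 over all genes. The 3 libraries of each group did not overlap, with GFI1 lower, for 46 members, against 34.8% of all genes.

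Floating cells gave a similar picture for GFI1. Of the 51 members 47 were lower in floating GFI1 than in floating control and 1 was higher, with 31.1% of all genes called lower and 29.3% higher. The median was −0.43, and 0.01 over all genes, and 47 members did not overlap, against 32.7% of all genes. These 2 comparisons share no library, and the members' log2 fold changes in the one and the other had a Pearson correlation of 0.912 over 51 genes, given as a description. The same correlation over all genes was not computed, so 0.912 is not shown to be particular to the members. When libraries were scaled by their totals alone, the median of all genes shifted to 0.14 for GFI1 in both states, and the members lower became 35 and 40 with medians of −0.20 and −0.30, so that the members lay 0.34 and 0.44 below the median of all genes, as with TMM factors.

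Suspension lowered nearly every member, in control and in GFI1 cells. In control cells 48 of 51 members were lower in floating than in attached libraries and none was higher, with 20.5% of all genes called lower and 19.6% higher. No member was higher at an unadjusted p under 0.05 either, and DESeq2 also called none higher. In GFI1 cells 50 of 51 were lower and none higher, with 16.3% of all genes called lower and 15% higher, and again no member was higher at an unadjusted p under 0.05 or by DESeq2. The medians were −0.49 and −0.54 over the members, against 0.01 and 0.00 over all genes. Groups did not overlap for 49 and 50 members, against 25.2% and 21.2% of all genes. The correlation over the 51 members between these suspension effects, which again share no library, was 0.809, and it too was not computed over all genes.

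**Figure D2:**
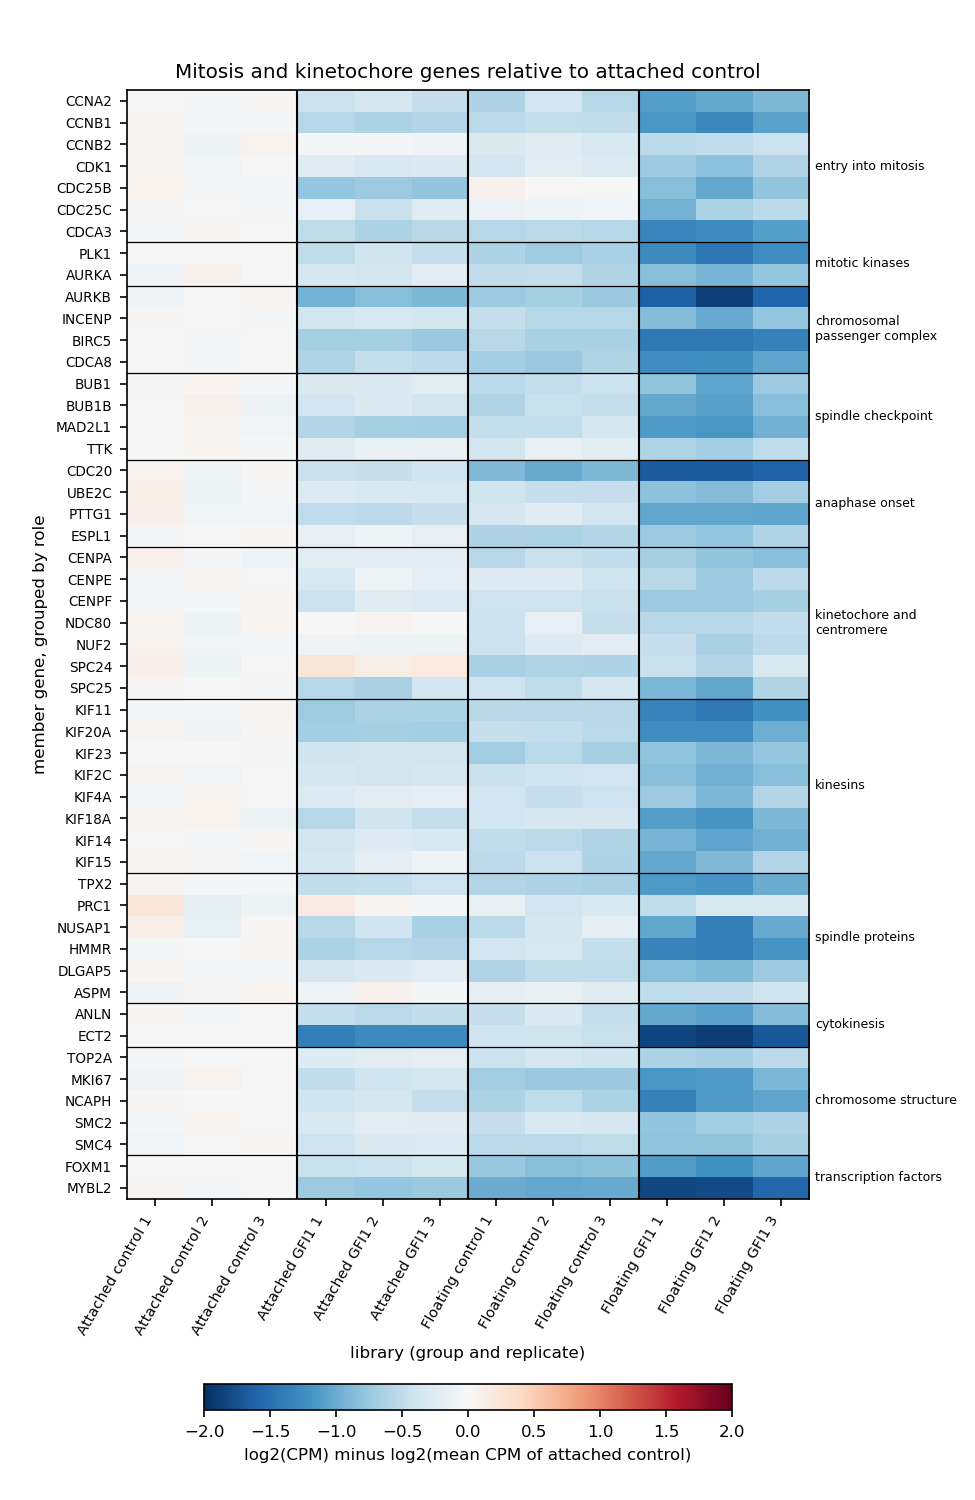
Each row is a member, ordered by role, and each column 1 of the 12 libraries, with colour giving log2 CPM minus log2 of the mean CPM of attached control, so that white is the attached control level and blue is below it. The mean of the 3 floating GFI1 columns is the lowest of the 4 groups for 50 of the 51 rows, with ECT2, MYBL2, AURKB and CDC20 darkest, whereas SPC24 is slightly red in attached GFI1 and CDC25B stays near white in floating control.

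The reductions were mostly below 2-fold. Only ECT2 fell 2-fold or more with GFI1, in attached and in floating cells, only MYBL2 with suspension in control cells, and only CDC20 with suspension in GFI1 cells. All 4 pairwise comparisons called 41 of the 51 members lower. The share of all genes lower in all 4 was not counted, but cannot exceed the 16.3% called lower with suspension in GFI1 cells. Floating GFI1 had the lowest mean of the 4 groups for 50 members, the exception being SPC24. Attached control had the highest mean for 47, the exceptions being SPC24, CDC25B, NDC80 and PRC1. For these ranks of group means no share of all genes was counted either. Single members retained between 28.7% (ECT2) and 77.0% (PRC1) of their attached control level in floating GFI1, with a median of 54.2%. The 33 members with TTTGAA in a promoter window had median log2 fold changes of −0.32 and −0.34 with GFI1 in attached and floating cells. With suspension in control and GFI1 cells they had −0.42 and −0.52. For the 12 members with windows but without TTTGAA the medians were −0.45, −0.62, −0.49 and −0.58 in the same order, and the difference was not tested. Per kilobase of gene length the members' mean levels spanned 0.737 to 93.8 CPM per kb with a median of 17.4. TOP2A was the highest, followed by CDC25B and CCNB1. PRC1 was the lowest, with only 895 counts and an overlapping same-strand gene, so its level and its 77.0% are uncertain.

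**Figure D3:**
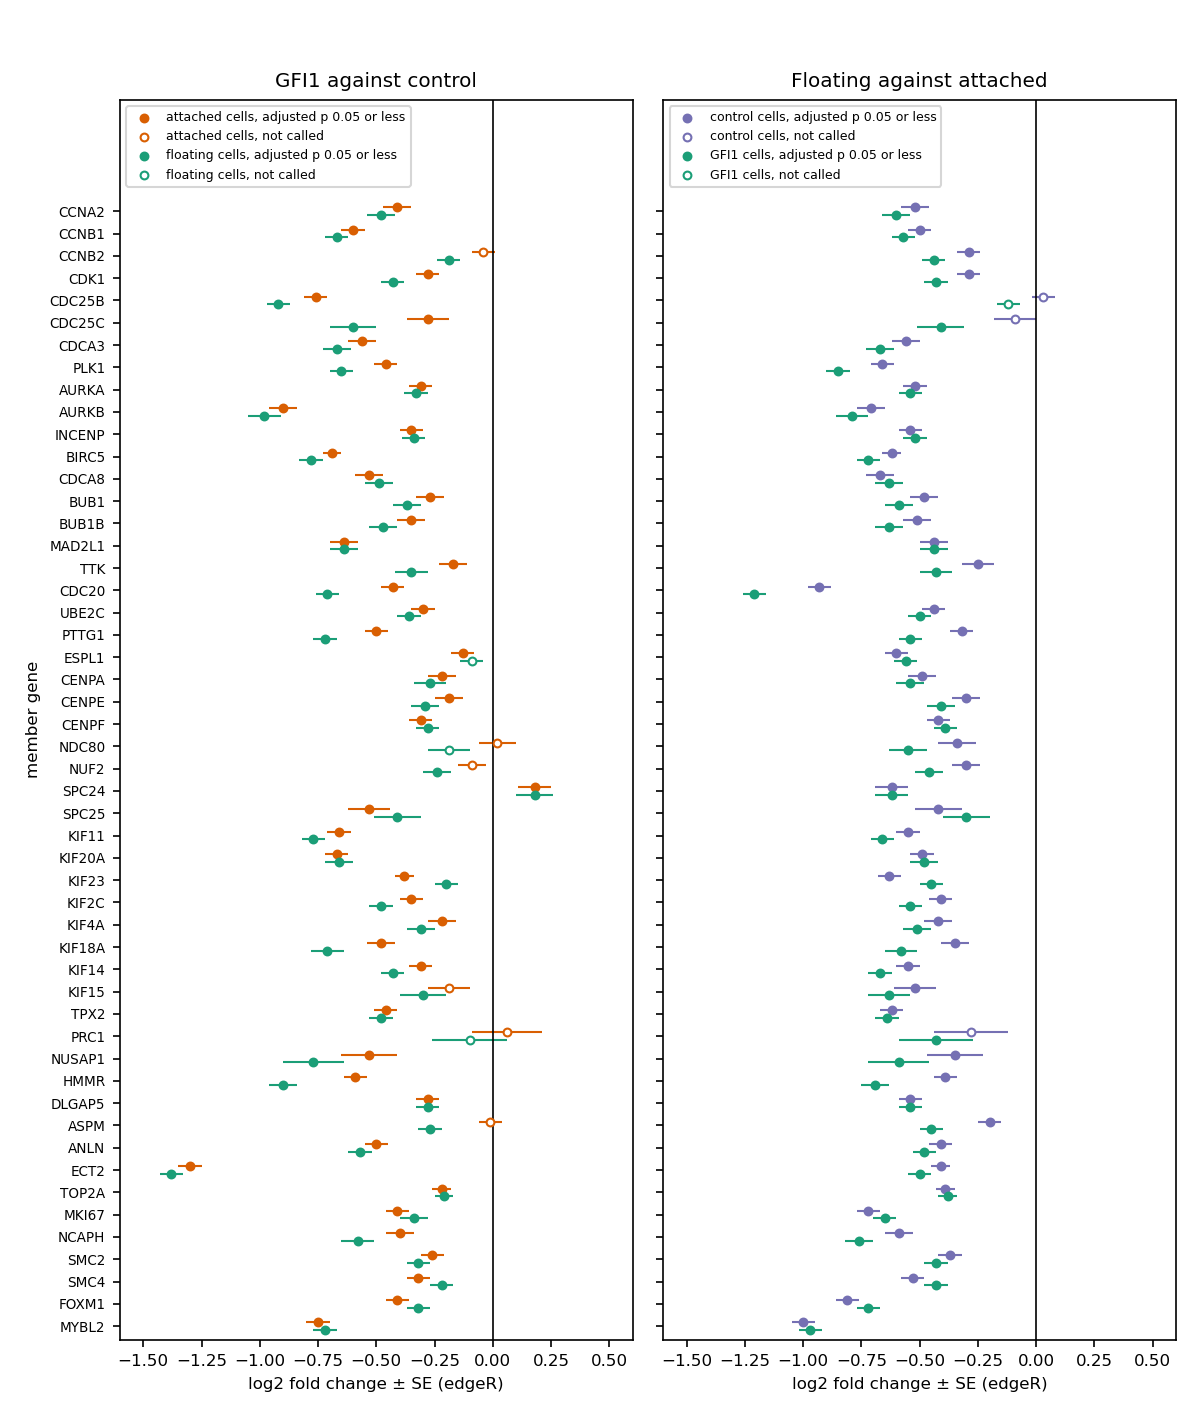
The left panel gives each member's log2 fold change ± SE for GFI1 against control in attached and in floating cells, and the right panel that for floating against attached in control and in GFI1 cells, with filled points for an adjusted p of 0.05 or less. Nearly all points lie left of 0, ECT2 lies farthest left for GFI1, and SPC24 is the only filled point right of 0.

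Both transcription factors of the module fell in every comparison. MYBL2 (B-MYB, the activator that joins the MuvB core in S and G2 phase) stood at 200.4, 189 and 195 CPM in the attached control libraries, 117, 113 and 117 in attached GFI1, 97.9, 96.3 and 97 in floating control and 55.1, 56.2 and 65.8 in floating GFI1. The groups formed 4 separate levels without overlap. MYBL2 fell by 0.75 on the log2 scale with GFI1 in attached cells (SE 0.05, adjusted p = 1.20e-12), and suspension of control cells gave −1.0 ± 0.05 (adjusted p = 4.41e-14), the lowest value of any member in that comparison. The remaining comparisons gave −0.72 ± 0.05 for GFI1 in floating cells and −0.97 ± 0.05 for suspension of GFI1 cells. FOXM1, the forkhead factor that activates G2 and M phase genes, stood at 105, 105 and 104 CPM in the attached control libraries, 76.8, 77.4 and 82.3 in attached GFI1, 61.9, 58.1 and 59.6 in floating control and 48.1, 45 and 50.3 in floating GFI1. Its 4 groups did not overlap either. FOXM1 fell more with suspension, at −0.81 ± 0.05 in control cells (adjusted p = 9.80e-13), than with GFI1, at −0.41 ± 0.05 in attached cells (adjusted p = 2.69e-08), although these values share a control group and their difference was not tested. FOXM1 overlaps RHNO1 and ITFG2 on the opposite strand, and strand use in counting is not stated.

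Of the 7 genes that bring cells into mitosis, 6 and 7 were lower with GFI1 in attached and floating cells, and 5 and 6 with suspension in control and GFI1 cells. CCNB1, the main mitotic cyclin, stood at 268, 254 and 251 CPM in the attached control libraries, 174, 167 and 171 in attached GFI1, 178, 185 and 183 in floating control and 115, 106 and 123 in floating GFI1. Attached GFI1 lay just below floating control and both lay well apart from the other groups. Its log2 fold changes were −0.60 ± 0.05 and −0.67 ± 0.05 for GFI1 and −0.50 ± 0.05 and −0.57 ± 0.05 for suspension, in the same order as above (attached then floating, control then GFI1), with the highest adjusted p at 3.47e-09. CDK1, the kinase that cyclin B activates, stood at 187, 174 and 182 CPM in the attached control libraries, 153, 145 and 148 in attached GFI1, 138, 157 and 149 in floating control and 109.7, 102 and 119 in floating GFI1. Here attached GFI1 and floating control overlapped. The decreases of CDK1 were smaller, from −0.28 ± 0.05 with GFI1 in attached cells (adjusted p = 3.52e-05) to −0.43 ± 0.05 with GFI1 in floating cells (adjusted p = 1.36e-07).

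CDC25B, a phosphatase that activates CDK1, behaved unlike its neighbours. It stood at 461, 429 and 431 CPM in the attached control libraries, 258, 265 and 256 in attached GFI1, 466, 445 and 443 in floating control and 244, 217 and 256 in floating GFI1. The floating control libraries overlapped with attached control, and only the GFI1 libraries were low. GFI1 gave −0.76 ± 0.05 in attached cells (adjusted p = 1.05e-12) and, for floating cells, −0.92 ± 0.05 (adjusted p = 2.86e-14), among the 3 lowest of the members each time, whereas suspension gave 0.03 ± 0.05 in control cells (adjusted p = 0.625) and −0.12 ± 0.05 in GFI1 cells (adjusted p = 0.0726). CCNB2, the second B-type cyclin, stood at 119, 107 and 120.4 CPM in the attached control libraries, 113, 112 and 110.2 in attached GFI1, 93.8, 97.3 and 91.8 in floating control and 79.5, 82.2 and 85.8 in floating GFI1. Both attached groups overlapped. CCNB2 was not called for GFI1 in attached cells, at −0.04 ± 0.05 (adjusted p = 0.441), and was lower in floating GFI1 cells at −0.19 ± 0.05 (adjusted p = 0.00143). The other 3, cyclin A2 (CCNA2), the phosphatase CDC25C and CDCA3, were lower in every comparison except CDC25C under suspension of control cells, at −0.09 ± 0.09 (adjusted p = 0.499).

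The mitotic kinases and the chromosomal passenger complex, which corrects faulty attachments and later guides cytokinesis, were lower in all 4 comparisons without exception among their 6 members. PLK1, the Polo-like kinase that acts from G2 to cytokinesis, stood at 169.8, 171 and 169.7 CPM in the attached control libraries, 119.7, 129 and 122 in attached GFI1, 110.4, 104 and 108 in floating control and 70.3, 62.5 and 72.1 in floating GFI1. The 4 groups were separate. PLK1 gave −0.46 ± 0.05 with GFI1 in attached cells (adjusted p = 4.12e-09) and −0.85 ± 0.05 with suspension of GFI1 cells (adjusted p = 1.63e-12), the latter among the 3 lowest members. AURKA, the spindle pole kinase, changed less with GFI1, at −0.31 ± 0.05 and −0.33 ± 0.05. AURKB, the kinase of the passenger complex, stood at 60.4, 63.7 and 66.2 CPM in the attached control libraries, 32.9, 35 and 34.1 in attached GFI1, 38.2, 40.1 and 38.1 in floating control and 20.4, 17.4 and 21.1 in floating GFI1. Its attached GFI1 libraries lay below floating control, with no overlap between any groups. AURKB was second only to ECT2 for GFI1, at −0.90 ± 0.06 in attached (adjusted p = 1.62e-12) and, for floating cells, −0.98 ± 0.07 (adjusted p = 3.22e-12). Of its partners, survivin (BIRC5) gave −0.69 ± 0.04 and −0.78 ± 0.05 with GFI1, borealin (CDCA8) −0.53 ± 0.06 and −0.49 ± 0.06, and the scaffold INCENP −0.35 ± 0.05 and −0.34 ± 0.05. With suspension the 4 members of the complex ran from −0.71 to −0.54 in control cells and from −0.79 to −0.52 in GFI1 cells.

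All 4 spindle checkpoint genes were lower in every comparison. MAD2L1 (MAD2, which sequesters CDC20) gave the lowest log2 fold changes with GFI1, −0.64 ± 0.06 and −0.64 ± 0.06, and the kinases BUB1 and BUB1B lay between −0.27 and −0.47. TTK (MPS1, the kinase that starts checkpoint signalling) stood at 36.2, 37.4 and 36 CPM in the attached control libraries, 30.8, 33.3 and 33.4 in attached GFI1, 28.3, 32.7 and 31.3 in floating control and 24.1, 22.6 and 25.7 in floating GFI1. Its attached GFI1 libraries lay below attached control but overlapped with floating control. TTK and ESPL1 had the smallest called decreases with GFI1 in attached cells, TTK with −0.17 ± 0.06 (adjusted p = 0.0279), a call that held in 13 of 20 alternative settings and was lost in the others, among them the fits without attached control replicate 2, with an adjusted p of 0.0834, or without attached GFI1 replicate 1, with 0.131. In the other comparisons TTK ran from −0.25 ± 0.07 for suspension of control cells (adjusted p = 0.00403) to −0.43 ± 0.07 for suspension of GFI1 cells.

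Genes of anaphase onset included the largest suspension effect. CDC20, the activator of the anaphase-promoting complex that the checkpoint holds back, stood at 168, 151 and 163 CPM in the attached control libraries, 118, 117 and 122 in attached GFI1, 86.6, 79.5 and 86.5 in floating control and 50.6, 50.8 and 52.5 in floating GFI1. The 4 groups were separate and the floating GFI1 libraries were tightly spaced. Suspension gave −0.93 ± 0.05 in control cells (adjusted p = 5.49e-14) and −1.21 ± 0.05 in GFI1 cells (adjusted p = 2.59e-15), and GFI1 gave −0.43 ± 0.05 in attached and −0.71 ± 0.05 in floating cells. PTTG1 (securin, the inhibitor of separase) stood at 104, 94 and 94.1 CPM in the attached control libraries, 68.4, 67.7 and 70.7 in attached GFI1, 76.9, 82.3 and 75.1 in floating control and 47.4, 47.6 and 47 in floating GFI1. Attached GFI1 lay below floating control. PTTG1 gave −0.50 ± 0.05 and −0.72 ± 0.05 with GFI1 and −0.32 ± 0.05 and −0.54 ± 0.05 with suspension. ESPL1 (separase, which cuts cohesin) stood at 91.7, 91.9 and 95 CPM in the attached control libraries, 83, 87.7 and 83 in attached GFI1, 60.9, 60.2 and 62.2 in floating control and 55.9, 54.4 and 61.5 in floating GFI1. The floating groups overlapped with each other and lay far below both attached groups. ESPL1 was lower with suspension, at −0.60 ± 0.05 (adjusted p = 2.74e-10) and −0.56 ± 0.05, while GFI1 gave −0.13 ± 0.05 in attached cells (adjusted p = 0.0162) and, without a call, −0.09 ± 0.05 among floating ones (adjusted p = 0.122). The attached value turned to 0.01 (adjusted p = 0.831) with scaling by library totals alone, and the call was also lost without attached control replicate 3, attached GFI1 replicate 1 or attached GFI1 replicate 3, with adjusted p from 0.0609 to 0.0773. UBE2C, the ubiquitin-conjugating enzyme of the complex, was lower throughout, between −0.30 ± 0.05 and −0.50 ± 0.05.

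Among the roles within the module, the kinetochore and centromere members had the smallest median decrease with GFI1. Of 7 members, 4 were lower and 1 higher with GFI1 in attached cells, and 5 lower and 1 higher in floating cells, whereas all 7 were lower with suspension in control and in GFI1 cells. The medians for GFI1 were −0.19 and −0.27, against −0.35 and −0.43 over all 51 members, a difference that was not tested. In 28 further kinetochore genes outside the module the medians for GFI1 were −0.33 in attached and −0.25 in floating cells. SPC24, a subunit of the NDC80 complex, was the only member called higher. It stood at 34.1, 29.6 and 32 CPM in the attached control libraries, 37.3, 34.5 and 36.7 in attached GFI1, 20.4, 20.9 and 20.8 in floating control and 23.3, 21.2 and 25.7 in floating GFI1. The GFI1 libraries lay above the control libraries of the same state, and all floating libraries lay below all attached ones. SPC24 rose by 0.18 on the log2 scale with GFI1 when attached (SE 0.07, adjusted p = 0.0255) and by as much when floating (SE 0.08, adjusted p = 0.0486), and fell by 0.62 with suspension in both. The rise stayed called in 15 of 20 alternative settings in attached cells and in 9 of 20 in floating cells, with log2 fold changes from 0.10 to 0.33. It was lost without attached control replicate 2 or 3 or attached GFI1 replicate 1 or 3 in attached cells (adjusted p from 0.0577 to 0.164), and without any 1 floating library except floating GFI1 replicate 2 in floating cells (adjusted p from 0.0668 to 0.288).

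Of the partners of SPC24, SPC25 was lower with GFI1 in both states, NUF2 was lower in floating cells and NDC80 was not called, and their differences from SPC24 were not tested. SPC25, which pairs with it, stood at 21.9, 21.6 and 21.1 CPM in the attached control libraries, 14.5, 13.7 and 16.5 in attached GFI1, 16.1, 15.2 and 17 in floating control and 11.5, 10.5 and 14.2 in floating GFI1. Attached GFI1 overlapped with both floating groups, whose own libraries did not overlap with each other. SPC25 gave −0.53 ± 0.09 and −0.41 ± 0.10 with GFI1 (adjusted p = 2.75e-05 and 0.00101) and −0.42 ± 0.10 and −0.30 ± 0.10 with suspension, the last with an adjusted p of 0.0233 that rose to 0.166 without attached GFI1 replicate 3, 0.0812 without floating GFI1 replicate 1 and 0.114 without floating GFI1 replicate 2. NDC80 and NUF2, which touch the microtubule, gave 0.02 ± 0.08 and −0.09 ± 0.06 with GFI1 in attached cells, neither of them called, and the interval for NDC80, from −0.15 to 0.19, includes the value of SPC24. The histone variant CENPA, the kinesin CENPE and the large coat protein CENPF were lower in every comparison. CENPF stood at 317, 317 and 328 CPM in the attached control libraries, 238, 271 and 266 in attached GFI1, 240.4, 242 and 235 in floating control and 194, 195 and 201 in floating GFI1. Only attached GFI1 and floating control overlapped. CENPF gave −0.31 ± 0.05 and −0.28 ± 0.05 with GFI1 and −0.42 ± 0.05 and −0.39 ± 0.05 with suspension, with the highest adjusted p at 8.40e-06.

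Of 8 mitotic kinesins, the motors that slide and shorten spindle microtubules, 7 and 8 were lower with GFI1 in attached and floating cells and all 8 with suspension in both kinds of cell. KIF11 (Eg5, which pushes the poles apart) and KIF20A, a cytokinesis motor, had the lowest values with GFI1 in attached cells, at −0.66 ± 0.05 (adjusted p = 8.00e-12) and −0.67 ± 0.05 (adjusted p = 5.87e-11). KIF15 was not called there, at −0.19 ± 0.09 (adjusted p = 0.0563). KIF23, the motor of the centralspindlin complex, stood at 183, 184 and 180.4 CPM in the attached control libraries, 139, 142 and 141 in attached GFI1, 113, 126 and 115 in floating control and 105, 98.3 and 106 in floating GFI1. Its 4 groups were separate. KIF23 gave −0.38 ± 0.04 with GFI1 in attached cells and, for floating cells, −0.20 ± 0.05 (adjusted p = 5.76e-08 and 7.45e-04), and the suspension effects were −0.63 ± 0.05 in control and −0.45 ± 0.05 in GFI1 cells. KIF2C, KIF4A, KIF18A and KIF14 were lower in every comparison, between −0.71 and −0.22.

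Among 6 spindle proteins, 4 and 5 were lower with GFI1 in attached and floating cells, and 5 and 6 with suspension in control and GFI1 cells. HMMR, which binds spindle microtubules, stood at 88.4, 90.8 and 91.7 CPM in the attached control libraries, 58.5, 60.6 and 60.3 in attached GFI1, 69.1, 72.7 and 64.8 in floating control and 35.9, 35.1 and 39.8 in floating GFI1. Attached GFI1 lay below floating control and no groups overlapped. HMMR gave −0.59 ± 0.05 with GFI1 in attached cells (adjusted p = 2.00e-10) and, for floating cells, −0.90 ± 0.06 (adjusted p = 2.73e-13). ASPM, a spindle pole protein, stood at 165, 177 and 179 CPM in the attached control libraries, 164, 183 and 170.0 in attached GFI1, 151, 157 and 147 in floating control and 122, 123 and 132 in floating GFI1. Its attached groups overlapped fully. ASPM gave −0.01 ± 0.05 with GFI1 in attached cells (adjusted p = 0.863) but −0.27 ± 0.05 in floating cells (adjusted p = 3.79e-05), with −0.20 ± 0.05 and −0.45 ± 0.05 for suspension. TPX2, the activator of Aurora A, ran from −0.46 ± 0.05 to −0.64 ± 0.05, DLGAP5 from −0.28 ± 0.05 to −0.54 ± 0.05 and NUSAP1 from −0.35 ± 0.12 to −0.77 ± 0.13. PRC1, which bundles midzone microtubules, was called only for suspension in GFI1 cells, at −0.43 ± 0.16 (adjusted p = 0.0377), but had only 895 counts over 12 libraries against 3126 for the overlapping same-strand gene AC068831.7, and its level is uncertain. NUSAP1 had 1812 counts and overlaps AC087721.2, a same-strand protein-coding gene with 0 counts, so its level is uncertain as well.

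The largest single response to GFI1 was that of ECT2, the exchange factor that activates RhoA at the cell equator for cytokinesis. ECT2 stood at 324, 324 and 322 CPM in the attached control libraries, 126, 134 and 134 in attached GFI1, 244, 246 and 238 in floating control and 90.6, 88.1 and 100.2 in floating GFI1. The GFI1 libraries of either state lay far below every control library. GFI1 gave −1.30 ± 0.05 in attached cells (adjusted p = 2.65e-18) and, for floating cells, −1.38 ± 0.05 (adjusted p = 1.36e-18), whereas suspension gave −0.41 ± 0.04 in control cells (adjusted p = 3.75e-08) and −0.50 ± 0.05 in GFI1 cells (adjusted p = 1.00e-08). Anillin (ANLN), the scaffold of the contractile ring and the second cytokinesis gene, gave −0.50 ± 0.05 and −0.57 ± 0.05 with GFI1 and −0.41 ± 0.05 and −0.48 ± 0.05 with suspension.

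All 5 genes of chromosome structure were lower in every comparison. MKI67 (Ki-67, the coat of mitotic chromosomes and a common proliferation marker) stood at 627, 693 and 652 CPM in the attached control libraries, 468, 499.9 and 517 in attached GFI1, 407, 395 and 394 in floating control and 294, 301 and 349 in floating GFI1. The 4 groups were separate, with 1 floating GFI1 library above the others of its group. MKI67 gave −0.41 ± 0.05 and −0.34 ± 0.06 with GFI1 (adjusted p = 3.74e-07 and 8.04e-06) and −0.72 ± 0.05 and −0.65 ± 0.05 with suspension (adjusted p = 7.93e-11 and 1.19e-09). TOP2A, the topoisomerase that untangles sister chromatids, stood at 725, 742 and 745 CPM in the attached control libraries, 616, 632 and 646 in attached GFI1, 546, 581 and 557 in floating control and 474, 467 and 515 in floating GFI1. No groups overlapped. TOP2A changed little for its high level, at −0.22 ± 0.04 and −0.21 ± 0.04 with GFI1 (adjusted p = 7.27e-05 and 1.88e-04) and −0.39 ± 0.04 and −0.38 ± 0.04 with suspension. The condensin genes NCAPH, SMC2 and SMC4 ran from −0.58 to −0.22 with GFI1 and from −0.76 to −0.37 with suspension.

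**Figure D4:**
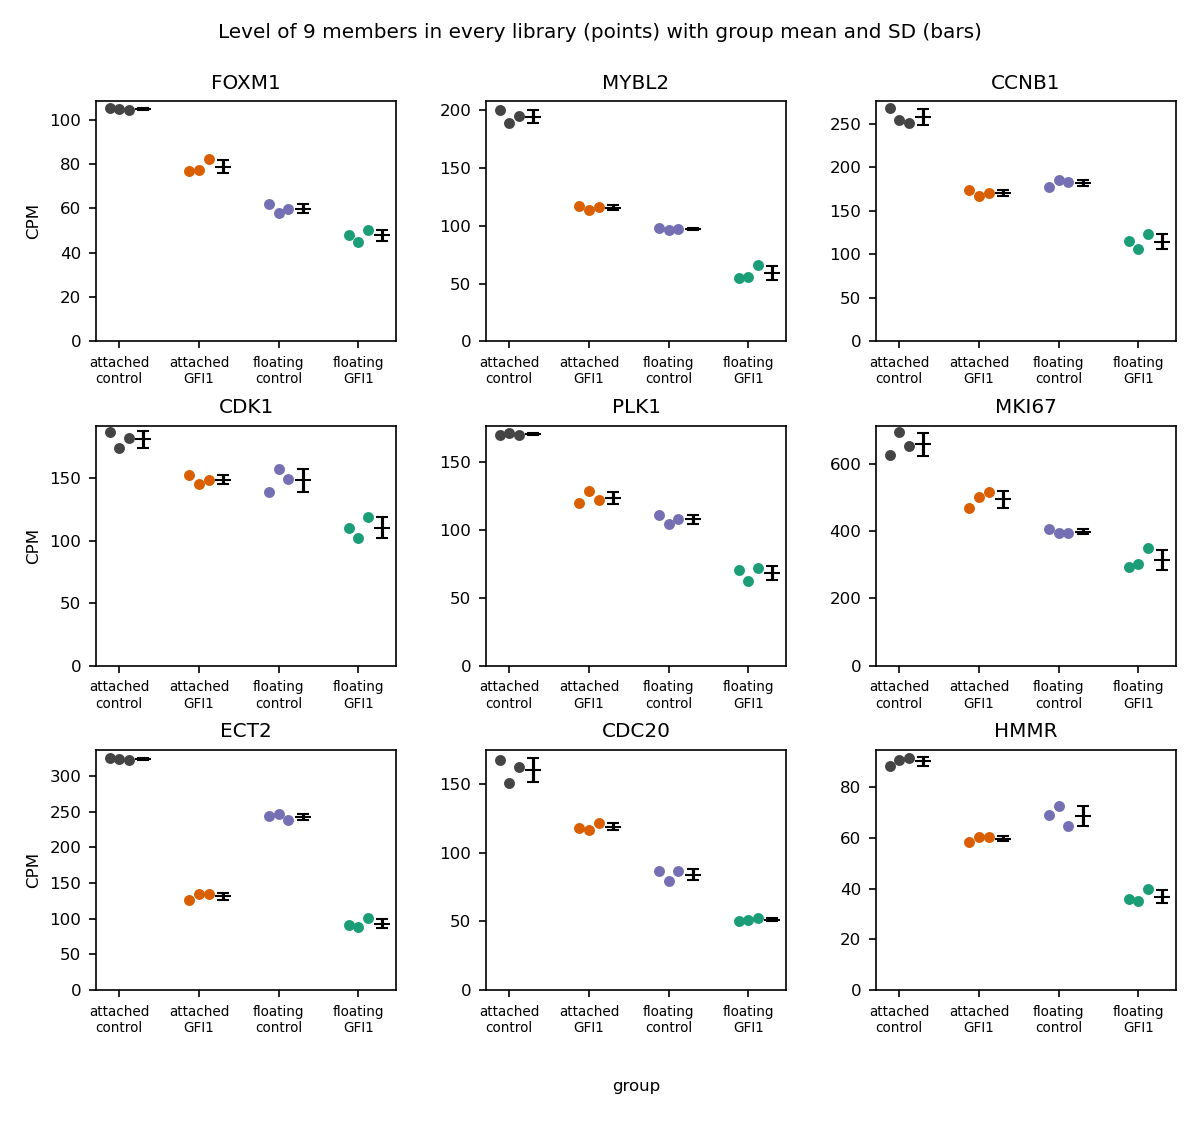
Points give CPM in each of the 3 libraries of a group, and the bar beside them the mean ± SD, for 9 members on axes that start at 0. MYBL2, CDC20 and PLK1 step down from attached control through attached GFI1 and floating control to floating GFI1, whereas ECT2 is lower in both GFI1 groups than in either control group.

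Whether suspension acted on the members differently in GFI1 and in control cells was tested as the difference between the suspension effects, an interaction term in the same fit. At an adjusted p of 0.05 or less 4 of 51 members were called, all with the stronger decrease in GFI1 cells, against 6.01% of all genes called in that direction and 4.76% in the other. The share of members is thus close to the background. No member was called in the other direction, with 1 at an unadjusted p under 0.05 (KIF23) and none called by DESeq2. The differences were −0.28 ± 0.07 for CDC20 (adjusted p = 0.00733), −0.30 ± 0.08 for HMMR (adjusted p = 0.00901), −0.26 ± 0.07 for ASPM (adjusted p = 0.0142) and −0.22 ± 0.07 for PTTG1 (adjusted p = 0.0451). Equally, each is the difference between the GFI1 effects in floating and attached cells. ASPM, for one, was called lower with GFI1 in floating cells and not in attached cells. The GFI1 level itself differed, with means of 290.1 CPM in attached GFI1 and 560.1 CPM in floating GFI1. Its part in these differences was not tested. Next by p came KIF23, at 0.18 ± 0.06 (adjusted p = 0.0723), and PLK1, at −0.19 ± 0.07 (adjusted p = 0.083), neither called. The median over the 51 members was −0.09, with 38 below 0, and the median over all genes was 0.00. CDC20 and HMMR stayed called in 19 of 19 alternative settings, ASPM in 17 and PTTG1 in 8. The calls fell to 2 without attached GFI1 replicate 2 or without floating control replicate 2.

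Other genes of the same machinery were counted in the same way, and their differences from the members were not tested. Of 28 further kinetochore genes, 20 were lower and 2 higher with GFI1 in attached cells, 18 and 1 in floating cells, and 23 and 0 with suspension in each kind of cell. SPDL1 (Spindly, which recruits dynein to kinetochores) had the lowest p for GFI1, at −1.08 ± 0.06 and −1.33 ± 0.07 (adjusted p = 1.69e-13 and 1.47e-14). Of 17 subunits and regulators of the anaphase-promoting complex, 10, 8, 9 and 7 were lower and 0, 2, 0 and 2 higher in the 4 comparisons (GFI1 attached, GFI1 floating, suspension control, suspension GFI1). In the same order, 32.8%, 31.1%, 20.5% and 16.3% of all genes were called lower and 29.5%, 29.3%, 19.6% and 15% higher. The 2 of 17 higher with suspension in GFI1 cells lie near that background. Of 17 cohesin and other condensin genes, 14, 11, 12 and 11 were lower and 3, 3, 1 and 0 higher. There the condensin subunit NCAPD2 fell with GFI1, at −0.67 ± 0.04 in attached cells (adjusted p = 7.11e-13), while the cohesin subunit STAG2 rose, at 0.40 ± 0.04 (adjusted p = 7.18e-09).

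The factors of the DREAM, RB and E2F network, which set the timing of these promoters, included genes called in either direction. Of 18, there were 11, 7, 11 and 10 lower and 4, 4, 2 and 1 higher in the same order, against 32.8%, 31.1%, 20.5% and 16.3% of all genes lower and 29.5%, 29.3%, 19.6% and 15% higher. For GFI1 in floating cells the 7 lower and 4 higher lie near that background. E2F2, an activating E2F, fell with GFI1 at −1.06 ± 0.08 and −1.15 ± 0.09 (adjusted p = 6.93e-12 and 1.05e-11), and the retinoblastoma gene RB1 rose at 0.43 ± 0.05 and 0.58 ± 0.05 (adjusted p = 1.52e-07 and 1.02e-09). Replication genes, which are transcribed earlier in the cycle, were mostly lower, with 27, 27, 29 and 30 of 30 called lower and none higher in any, and medians of −0.48, −0.44, −0.66 and −0.58. None of them was higher in these 4 comparisons at an unadjusted p under 0.05. MCM3, a subunit of the replicative helicase, gave −0.93 ± 0.05 with GFI1 in attached cells (adjusted p = 8.74e-14). In the interaction 3 replication genes were called higher and 1 lower. The difference between the replication genes and the members was not tested.

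**Figure D5:**
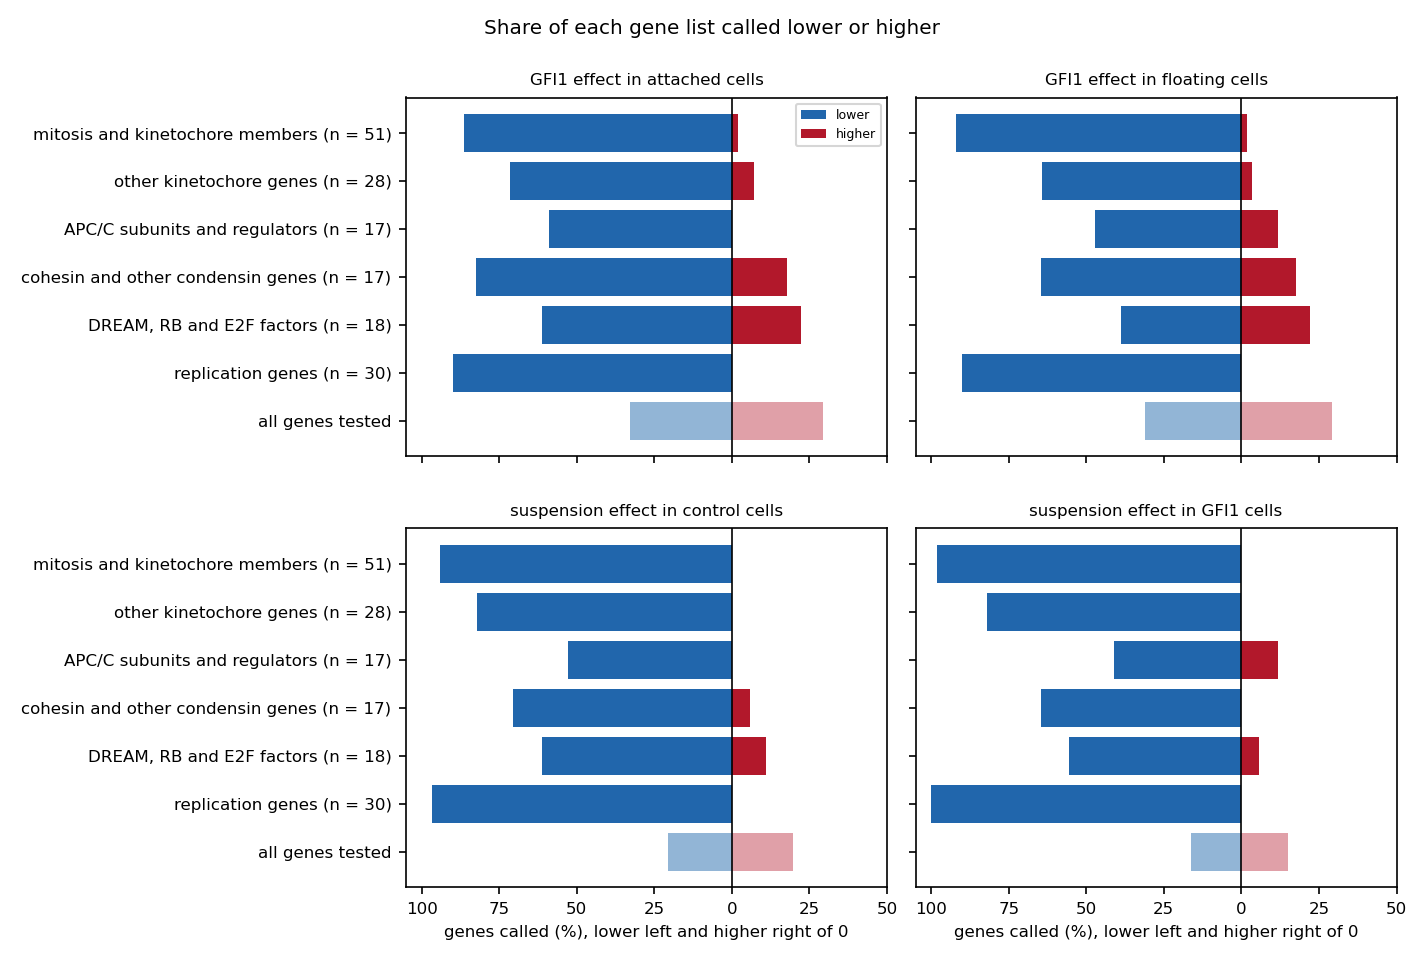
Bars give the percentage of each gene list called lower (blue, to the left) or higher (red, to the right) at an adjusted p of 0.05 or less in the 4 pairwise comparisons, with all genes tested in pale bars. The 51 members and the 30 replication genes reach farthest to the left in all 4 comparisons, while a larger share of the other lists was higher or not called.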

How the data were processed

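Poly-A RNA of A549 cells was measured in 12 libraries, 3 in each of 4 groups taken from the sample labels. The authors deposited raw read counts per gene for 58735 genes, with 17014188 to 20748677 counts per library. The study's methods name FastQC v0.11.8, Hisat2 v2.0.5 on GRCh38/hg38 and featureCounts v1.5.0-p3, with DESeq2 v1.20.0 for testing, whereas the submitters' processing notes name Bowtie2, HTSeq and hg38, and which of them made the table could not be settled. The annotation release and the use of strand are not given in the sources used here, so overlapping genes on opposite strands could not be separated.

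Counts were tested with edgeR 4.0.16 in R 4.3.3, by the quasi-likelihood F test in 1 fit of 4 group means with TMM factors and filterByExpr (minimum count 10, minimum total 15), which kept 17829 genes. Two-sided p-values were corrected over all of these (Benjamini-Hochberg), with calls at 0.05 or less and no fold threshold. SE was the absolute log2 fold change divided by the square root of F. The biological coefficient of variation was 4.86%, which sets the precision with 3 libraries a group. Promoter windows and motif letters came from RefSeq, GRCh38.p14. DESeq2 1.42.0, other scalings and filters, a replicate block and leaving out each library were tried as alternatives. The 20 settings of a pairwise comparison include leaving out libraries of the groups not compared, which enter it only through the shared fit.

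The members and gene lists were chosen with earlier results of these data known, so no test over a list was made. CPM in every library is given for FOXM1, MYBL2, CCNB1, CDK1, PLK1 and MKI67, for up to 3 members with the lowest and 3 with the highest log2 fold change among those called, with mean log2 CPM no lower than 1, in each pairwise comparison, and for the 6 members with the lowest p in the interaction. Of other lists at most 2 genes per comparison are named, those with the lowest p in each direction.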

Additional observations from a re-analysis of the deposited data

Results flagged for a closer look

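The interaction term of the edgeR fit, the difference between the suspension effects in GFI1 and in control cells, was called for 4 of 51 members (adjusted p of 0.05 or less), all with the stronger decrease in GFI1 cells. The share is close to the background, since 6.01% of all genes were called in that direction. The suspension effect in GFI1 cells minus that in control cells was −0.28 for CDC20, −0.30 for HMMR, −0.26 for ASPM and −0.22 for PTTG1 on the log2 scale. In all 4 genes the 3 floating GFI1 libraries lay below every other library. Mean GFI1 was 290.1 CPM in attached GFI1 and 560.1 CPM in floating GFI1, and the part of this in the differences was not tested. The call for PTTG1 held in 8 of 19 alternative settings and that for ASPM in 17, ASPM being lost without attached GFI1 replicate 2 (adjusted p = 0.0837) and without floating control replicate 2 (adjusted p = 0.0509).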

How the results depend on the processing

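With 3 libraries a group, differences near the threshold depended on single libraries. PRC1 and NUSAP1 had the fewest counts of the members, and each overlaps a same-strand protein-coding gene. The reason for their low counts was not tested. The counts of members lower stayed within 1.5 times in the 4 pairwise comparisons under every alternative run, from 35 to 50 of 51, and all medians stayed below 0. Upper quartile scaling moved the medians for GFI1 to −0.30 in attached and −0.38 in floating cells, and scaling by library totals alone moved them to −0.20 and −0.30 and gave 2 members higher in attached cells. ESPL1 then turned to 0.01 for GFI1 in attached cells. No member was higher in attached cells without the low-count filter (0), nor in floating cells with DESeq2, with RLE size factors, without that filter or with only the 2 groups compared (0 each). Leaving out 1 library gave 0 to 1 members higher for GFI1 in both states, medians of −0.48 to −0.37 for GFI1 in floating cells, and for the interaction 2 to 6 members lower, 0 to 1 higher and medians of −0.14 to −0.06. Replicate numbers are shared by all groups, but the deviations of same-numbered libraries correlated only from −0.031 to 0.031, so the numbers were not taken to pair the libraries. With the replicate block 45, 47, 48 and 50 members were lower in the 4 pairwise comparisons and 3 in the interaction, where PTTG1 was lost (adjusted p = 0.0501).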
